A study of Mus musculus with 16 samples.

Results

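Solute carriers are the largest group of membrane transport proteins, and 230 of their genes were expressed in the mouse hippocampus libraries described here. They were selected on measured abundance, as the genes whose symbol has the solute carrier form (Slc, a family number, a letter and a member number) and whose mean over all 16 libraries was at least 1 FPKM, a unit of abundance scaled to exonic length and library size. Of 55359 genes in the deposited table, 364 have such a symbol, and 134 of them lay under that level. The rule averaged stressed and non-stressed libraries of both sexes, so levels are a description, and a gene near the limit can be a member through the groups where it is high. In 8 members at least 1 group mean was under 1 FPKM. Of these, Slc9a7 and Slc18a2 reached the limit only through the stressed and the non-stressed groups, so their differences are given without a test. The other 6 were Slc47a1, Slc38a5, Slc25a13, Slc25a47, Slc17a8 and Slc25a24. The male difference of Slc17a8, whose non-stressed male mean was 0.78 FPKM, is also given without a test. The members just inside the limit were Slc25a24, Slc17a8 and Slc25a47 with means of 1.03, 1.05 and 1.06 FPKM, and the genes just outside it were Slc2a9, Slc40a1 and Slc26a2 with 0.919, 0.908 and 0.893 FPKM.

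RNA came from C57BL/6JNarl mice of 4 groups with 4 libraries each, namely chronic-stressed males, non-stressed males, chronic-stressed females and non-stressed females. The sample labels give the tissue as brain and the design text as hippocampus, and neither describes the stress procedure or the animals' age. Each library has a pool size, which was 3 in both female groups and in non-stressed males, and 2, 2, 1 and 2 in chronic-stressed males. The labels do not say whether pools shared animals, so the p-values measure the spread between these libraries.

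A solute carrier moves a small molecule or ion across a membrane by changing shape, either down its own gradient or coupled to the movement of sodium, protons, potassium, chloride or another solute. In the hippocampus, carriers in astrocytes and nerve endings clear glutamate, GABA and glycine from the space around synapses, and carriers in synaptic vesicles load transmitter for release. Others set the chloride level on which GABA inhibition depends, return calcium to the resting level after firing, feed neurons with glucose and lactate, or carry phosphate and nucleotides into mitochondria.

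Library totals ran from 15156004 to 32501597 counts. Dentate granule neuron markers (Prox1, C1ql2 and Dsp) summed to 50.7 to 62.9 FPKM in chronic-stressed males and 52.3 to 77.2 FPKM in non-stressed males, and to 49.9 to 59 FPKM in chronic-stressed females and 49.9 to 63.7 FPKM in non-stressed females, so markers of the named tissue were present in every library. Prox1 (0.59 in males and 0.53 in females) and Dsp (1.20 and 0.77) rose and C1ql2 (-0.48 and -0.35) fell on the log2 scale. Microglia markers (Cx3cr1, P2ry12, Tmem119 and C1qa) summed to 59.7 to 63.1 FPKM in chronic-stressed males and 77 to 90.3 FPKM in non-stressed males, where 3 of 4 fell. They summed to 60.2 to 86.9 FPKM in chronic-stressed females and 70.6 to 106 FPKM in non-stressed females, where 2 of 4 fell, and their part in the results below was not tested. Non-stressed female libraries 1 and 4 lay away from libraries 2 and 3 of that group in many of the genes below, and results that rest on them are given with and without them. These are bulk libraries, in which fewer cells of a type and less RNA per cell cannot be told apart.

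Mean levels of the 230 members ran from 1.03 to 250 FPKM with a median of 6.78 FPKM, and 86 members reached 10 FPKM. The 10 most abundant held 36.1% of the summed FPKM of all members. They were led by the ADP/ATP carrier Slc25a4 at 250 FPKM, the astrocyte glutamate transporter Slc1a2 at 182 FPKM and the vesicular glutamate transporter Slc17a7 at 177 FPKM. Next came Slc22a17, a receptor for the iron carrier lipocalin 2, at 155 FPKM, and the second ADP/ATP carrier Slc25a5 at 134 FPKM. Values of these neighbours in rank overlapped between libraries, and Slc17a7 alone ranged from 59.9 FPKM in non-stressed female library 4 to 220 FPKM in chronic-stressed male library 3. Counts of all members made up 2.04 to 2.06% of each library in chronic-stressed males and 1.73 to 1.85% in non-stressed males, and 1.99 to 2.04% in chronic-stressed females and 1.53 to 1.91% in non-stressed females.

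**Figure D1:**
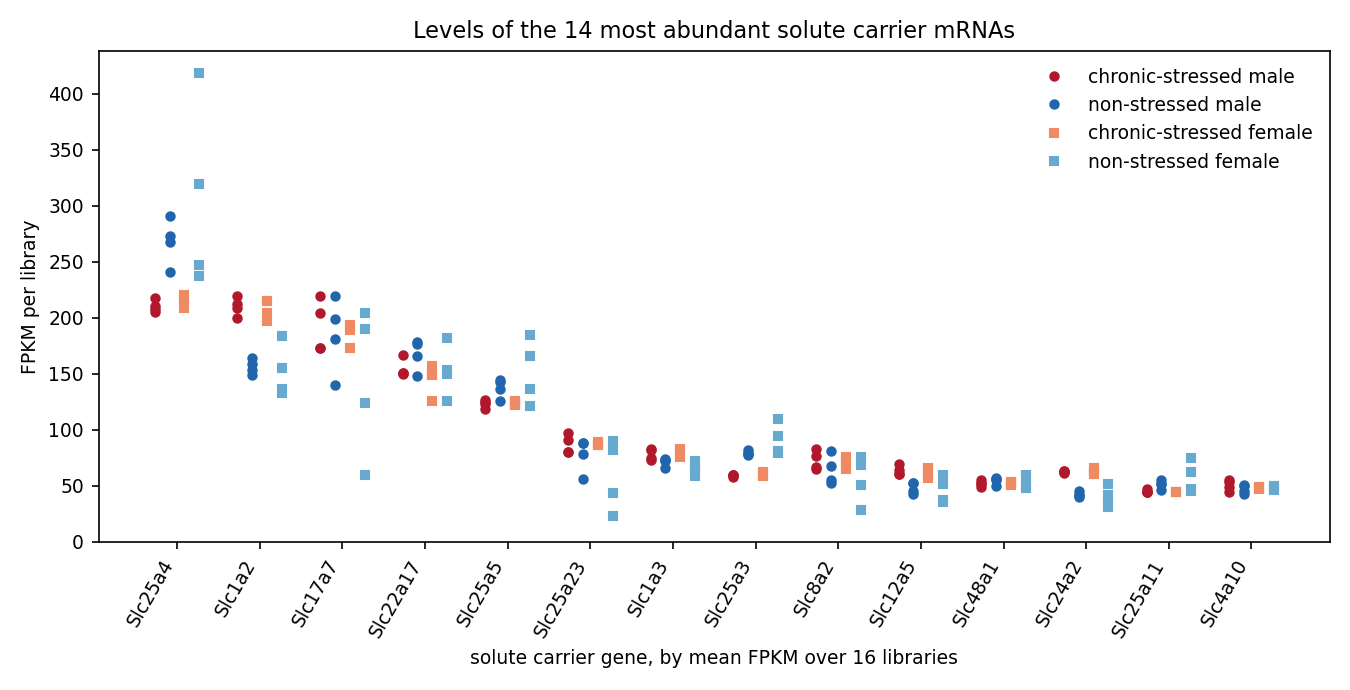
FPKM in each of the 16 libraries for the 14 most abundant solute carrier mRNAs, ordered by mean FPKM; each point is a library and colours mark the group. Slc1a2 points of stressed libraries (197 to 219 FPKM) sit above those of non-stressed ones (133 to 184 FPKM), and Slc25a4 shows the opposite order.

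More solute carriers rose than fell under chronic stress in both sexes. With edgeR's quasi-likelihood test, adjusted by Benjamini and Hochberg's method over all 17569 genes tested and called below 0.05, 73 of the 230 members passed in chronic-stressed against non-stressed males (31.7%), against 39.7% of all genes tested. Of these, 54 were higher and 19 lower, where 18.5% of all genes were higher and 21.2% lower. In chronic-stressed against non-stressed females 87 members passed (37.8%), against 49.3% of all genes, with 58 higher and 29 lower, where 22.1% of all genes were higher and 27.3% lower. Over the 222 members at 1 FPKM or more in each group, 52 were higher and 18 lower in males and 56 higher and 28 lower in females. The median log2 fold change of the members was 0.10 in males and 0.11 in females, and that of all genes tested was -0.03 in each. The share of rises among those that passed was 74% in males and 66.7% in females, against 46.6% and 44.8% among all genes. On TPM, with limma on log2(TPM + 0.5), 107 rose and 5 fell in males and 129 rose and 6 fell in females, where 46.1% and 55.2% of all genes passed. Rises made up 95.5% and 95.6% of these member calls, and 75.3% and 73.8% of the calls of all genes. With limma on log2(FPKM + 0.5), 51 rose and 20 fell in males and 61 rose and 29 fell in females, where 39.8% and 49.5% of all genes passed. The TPM scale moved the median of all genes to 0.19 in males and 0.22 in females, and the members' median lay 0.13 and 0.14 above it.

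Of the members, 55 passed in both sexes, 39 higher and 16 lower, and 0 in opposite directions. They are 75.3% of the members that passed in males and 63.2% of those that passed in females, against 86.4% and 69.5% of all genes tested. Members that passed in both sexes made up 23.9% of the members, and such genes 34.3% of all genes. Values of the compared groups did not overlap for 65 of the 73 male calls and 69 of the 87 female calls, which is 28.3% and 30% of the members; 35.9% and 38.8% of all genes passed and did not overlap. Most changes were small, since 3 members in males and 7 in females exceeded 2-fold.

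**Figure D2:**
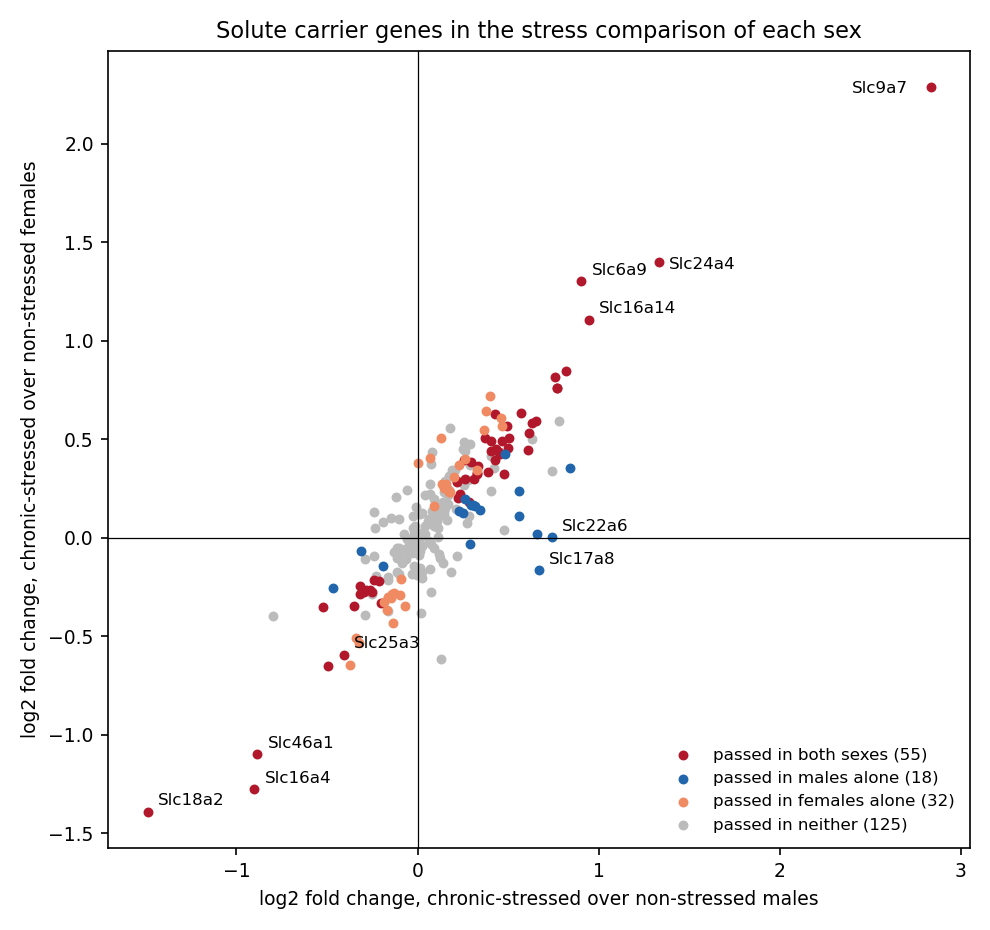
Log2 fold change of each of the 230 members in chronic-stressed over non-stressed males (horizontal) and females (vertical); colours mark in which sex a member passed. The 55 members that passed in both sexes all lie at the upper right or the lower left, with Slc9a7 farthest out at 2.83 in males and 2.29 in females. Slc9a7 and Slc18a2 are among the 55 and are members only through the groups where they are high.

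Sodium, proton and calcium exchangers, which use the sodium gradient to extrude protons or calcium, included the member with the highest fold change. For comparison with the classes below, 18.5% of all genes rose and 21.2% fell in males, and 22.1% and 27.3% in females. Of all genes of 5 to 8 kb, 26.3% rose in males and 34.5% in females. Of the 16 exchangers, with a median exonic length of 5.25 kb, 6 rose in males (37.5%) and 9 in females (56.2%), and 0 fell in either sex. Slc9a7, a member only through the stressed groups, is counted among these rises. After removal of the length trend (a spline in exonic length taken out of each library) 3 rose in males and 6 in females, and without non-stressed female libraries 1 and 4 it was 9 rises and 1 fall in males and 5 rises in females. Slc9a7, a sodium/proton exchanger of the trans-Golgi network, lies on the minus strand of chromosome X from 19971993 to 20158046 (GRCm39). It measured 4.73, 4.83, 4.89 and 4.64 FPKM in chronic-stressed males, against 0.72, 0.62, 0.62 and 0.74 FPKM in non-stressed males. In females it measured 4.51, 4.13, 4.52 and 4.41 FPKM in the chronic-stressed group, against 0.53, 0.76, 1.87 and 0.36 FPKM in the non-stressed group. Stressed and non-stressed libraries were far apart in both sexes, the closest being non-stressed female library 3 at 1.87 FPKM. These rest on 314 to 607 counts per stressed library and 25 to 144 per non-stressed library, and the log2 fold changes were 2.83 ± 0.30 in males (SE) and 2.29 ± 0.29 in females. Without non-stressed female libraries 1 and 4 the female value was 1.75.

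The potassium-dependent sodium/calcium exchangers Slc24a4 and Slc24a2 rose as well. Slc24a4 had 8.58, 7.61, 7.89 and 7.82 FPKM in chronic-stressed males, against 3.16, 2.82, 2.93 and 3.86 FPKM in non-stressed males. It had 8.2, 7.56, 8.18 and 7.6 FPKM in chronic-stressed females, against 2.34, 4.06, 4.24 and 1.31 FPKM in non-stressed females. All stressed libraries lay above all non-stressed ones, with log2 fold changes of 1.33 ± 0.23 (adjusted p = 0.000259) and 1.40 ± 0.23 (adjusted p = 0.000155). An antisense gene, Gm16339, overlaps Slc24a4 at a mean of 0.787 FPKM. Its log2 fold change was -0.18 in males and -1.14 in females. Slc24a2, the abundant neuronal member, averaged 62.6 ± 0.929 FPKM in chronic-stressed males and 42.4 ± 2.09 FPKM in non-stressed males (SD, n = 4 each), a log2 fold change of 0.57 ± 0.11 (adjusted p = 0.000598). Its female means were 62.4 ± 2.61 FPKM in chronic-stressed and 40.3 ± 8.91 FPKM in non-stressed mice, a log2 fold change of 0.63 ± 0.11 (adjusted p = 0.000236). Length-corrected, Slc24a2 passed at 0.20 and 0.24. The plasma-membrane sodium/calcium exchanger Slc8a1 rose by 0.63 ± 0.09 in males and 0.58 ± 0.09 in females on the log2 scale. With the trend of exonic length removed, its values were 0.12 and 0.04 and did not pass.

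**Figure D3:**
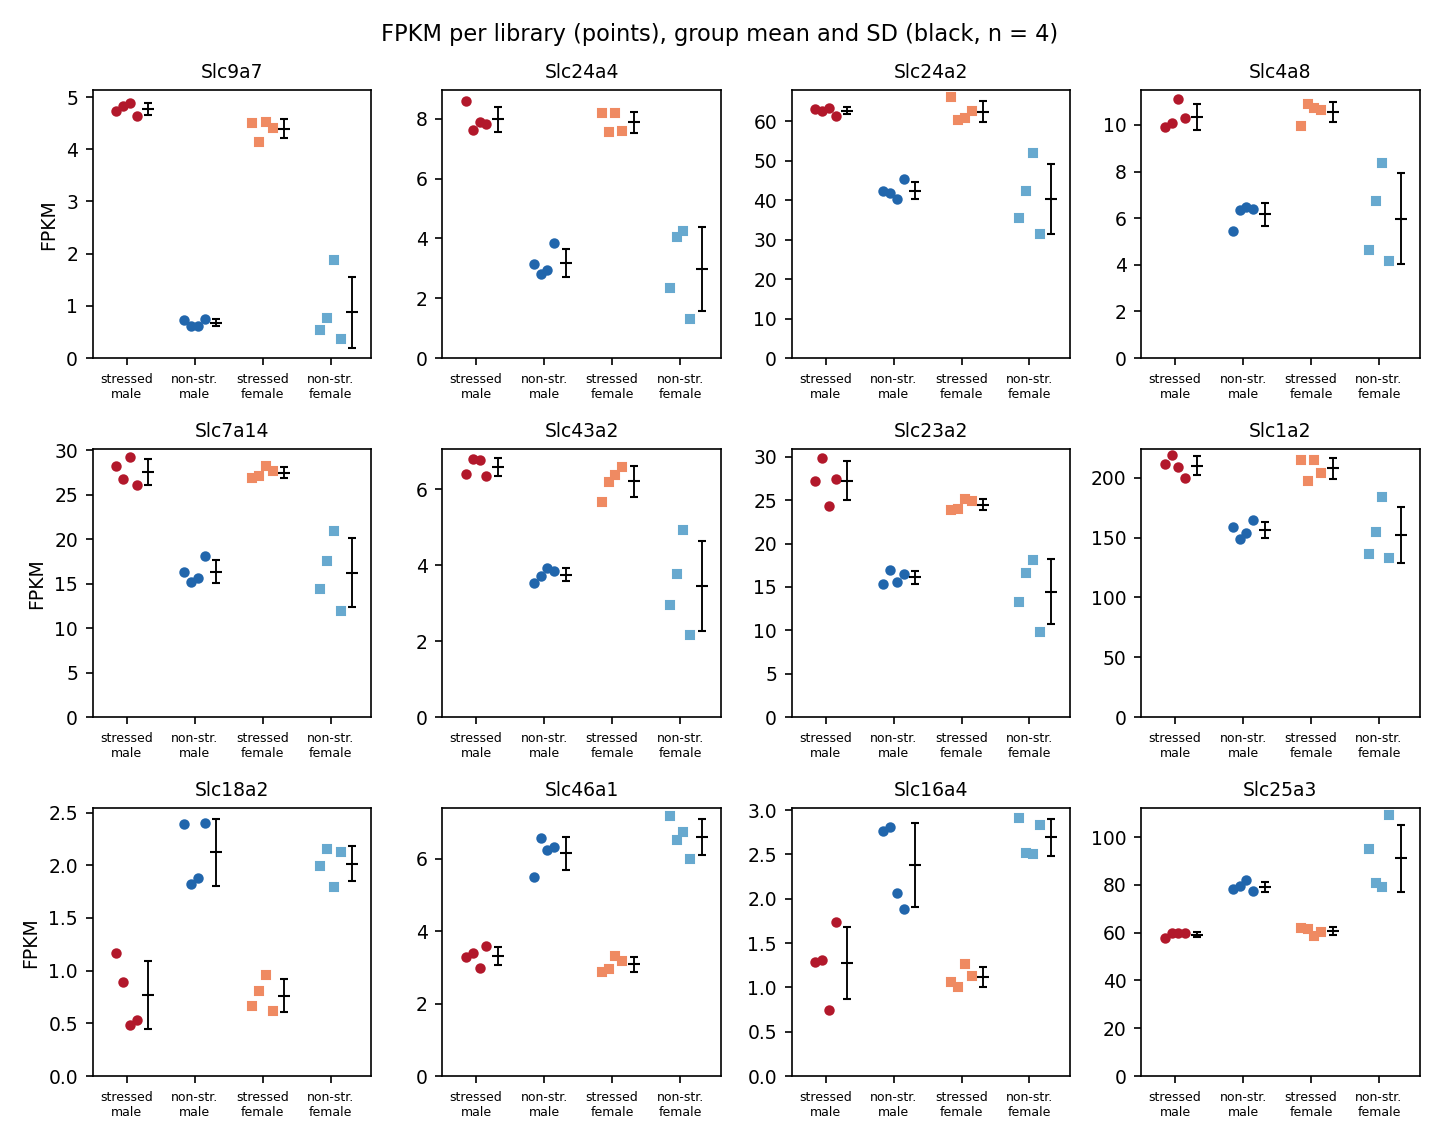
FPKM per library of 12 members (points; vertical axes start at 0) with the group mean and SD in black, n = 4. In the first 8 panels the stressed libraries lie above the non-stressed libraries of the same sex, and in the last 4 panels (Slc18a2, Slc46a1, Slc16a4 and Slc25a3) they lie below them.

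Among the Slc1 transporters of glutamate and neutral amino acids, 2 of 5 members rose in males and 3 of 5 in females, and 0 fell. These are 40% and 60% of a class with a median exonic length of 8.26 kb. Of all genes of 8 kb or more, 54.1% rose in males and 59.3% in females. With the length trend removed, 1 Slc1 member rose in males and 2 in females. Slc1a2, the main astrocyte glutamate transporter (GLT-1), measured 212, 219, 209 and 200 FPKM in chronic-stressed males, against 159, 149, 153 and 164 FPKM in non-stressed males. Chronic-stressed females had values of 215, 197, 215 and 204 FPKM, against 136, 155, 184 and 133 FPKM in non-stressed females. No stressed library overlapped a non-stressed one of its sex, and the log2 fold changes were 0.44 ± 0.09 (adjusted p = 0.00099) and 0.45 ± 0.09 (adjusted p = 0.000651). The 5 astrocyte markers (Aqp4, Gja1, Aldh1l1, Gfap and Slc1a3) summed to 210 to 230 FPKM in chronic-stressed males and 232 to 237 FPKM in non-stressed males, and to 217 to 263 FPKM in chronic-stressed females and 215 to 239 FPKM in non-stressed females; 1 of 5 fell in males and 1 of 5, Slc1a3 itself, rose in females. The neuronal glutamate transporter Slc1a1 rose by 0.22 ± 0.06 in males and 0.20 ± 0.06 in females. It overlaps Spata6l on the opposite strand, which fell by 0.43 in males and by 0.40 in females. The second astrocyte transporter, Slc1a3 (GLAST), averaged 78.3 ± 4.81 FPKM in chronic-stressed males and 71.4 ± 3.52 FPKM in non-stressed males, and did not pass (adjusted p = 0.118), though on TPM its male value of 0.37 passed. It rose in females by 0.25 ± 0.07 (adjusted p = 0.00854). Slc1a2 has 13.1 kb of exonic sequence, Slc1a1 8.26 kb and Slc1a3 8.54 kb. With the length trend removed, Slc1a2 stood at 0.04 in males and 0.03 in females, and Slc1a1 and Slc1a3 at -0.01 and -0.11 in males and -0.08 and -0.04 in females; none of the 6 values passed.

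The Slc6 family couples uptake of GABA, glycine and related solutes to sodium and chloride. Its member Slc6a17 is counted with the vesicular transporters below. Of the 8 other members, 3 rose in males (37.5%, against 18.5% of all genes), 5 rose in females (62.5%, against 22.1%) and 0 fell. Length-corrected, 1 rose in males and 3 in females, and 3 rose in females without non-stressed female libraries 1 and 4. Slc6a9, the glycine transporter GlyT1, which sets glycine at NMDA receptors, had the largest change. It measured 8.65, 8.88, 8.71 and 9.47 FPKM in chronic-stressed males, against 3.64, 4.4, 6.15 and 4.98 FPKM in non-stressed males. Its libraries in chronic-stressed females stood at 8.48, 9.04, 8.22 and 8.75 FPKM, against 2.68, 5.07, 5.23 and 0.97 FPKM in non-stressed females. The stressed libraries were all above the non-stressed ones, whose spread was wide. The log2 fold changes were 0.91 ± 0.30 (adjusted p = 0.0253) and 1.30 ± 0.31 (adjusted p = 0.00261), and the female value was 0.77 without non-stressed female libraries 1 and 4. The male call ended when chronic-stressed male library 4 or non-stressed male library 1 or 2 was left out, and with limma on log2(FPKM + 0.1). Slc6a9 overlaps B4galt2 on the opposite strand (mean 9.93 FPKM), whose log2 fold changes of 0.09 in males and 0.11 in females did not pass. The astrocyte GABA transporter Slc6a11 (GAT3) rose in females by 0.55 ± 0.18, but its adjusted p was 0.108 in males. Its female call ended without non-stressed female library 1, with a value of 0.22 without libraries 1 and 4; without library 4 alone it was 0.35.

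Vesicular transmitter transporters mostly did not pass: of 7 members, 1 rose and 1 fell in each sex. The fall was Slc18a2 and the male rise Slc17a8, both under 1 FPKM in at least 1 group mean. Since these differences are given without a test, the only call left in the class is the female rise of Slc6a17. Slc18a2, the vesicular monoamine transporter VMAT2, which loads dopamine, noradrenaline, serotonin and histamine, had the lowest fold change, and is a member only through the non-stressed groups. It lies on the plus strand of chromosome 19 from 59249328 to 59284444 (GRCm39). It measured 1.17, 0.89, 0.48 and 0.53 FPKM in chronic-stressed males, against 2.39, 1.82, 1.88 and 2.4 FPKM in non-stressed males. In chronic-stressed females it measured 0.66, 0.81, 0.96 and 0.62 FPKM, against 1.99, 2.15, 1.79 and 2.13 FPKM in non-stressed females. Every stressed library was below every non-stressed one, at 62 to 143 counts per stressed library and 144 to 223 per non-stressed library. The log2 fold changes were -1.49 ± 0.22 and -1.39 ± 0.22. Of the other monoamine neuron markers, Slc6a3 and Slc6a4 were too low to be tested (at most 0.74 and 0.07 FPKM), and Th and Tph2 did not pass, with male values of 0.33 and 0.20 and female values of -0.58 and -0.55.

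Slc17a7 (VGLUT1), which loads glutamate into vesicles of hippocampal principal neurons, measured 173, 174, 220 and 204 FPKM in chronic-stressed males, against 140, 181, 199 and 219 FPKM in non-stressed males. Chronic-stressed females had values of 173, 191, 190 and 194 FPKM, against 124, 190, 204 and 59.9 FPKM in non-stressed females. The groups overlapped in both sexes and neither comparison passed (adjusted p = 0.838 and 0.224). On TPM the female value of 0.77 passed and the male value of 0.31 did not. The 3 excitatory neuron markers, Slc17a7 among them, summed to 769 to 815 FPKM in chronic-stressed females and 354 to 801 FPKM in non-stressed females. The vesicular GABA transporter Slc32a1 averaged 19.9 ± 1.71 FPKM in chronic-stressed males and 18 ± 2.44 FPKM in non-stressed males, and 19.4 ± 1.8 FPKM in chronic-stressed females and 16.5 ± 2.6 FPKM in non-stressed females, and did not pass either. With the length trend removed it passed as higher at 0.37 in males and 0.45 in females, and on TPM at 0.39 and 0.49. The third vesicular glutamate transporter, Slc17a8 (VGLUT3), measured 1.05, 1.23, 1.25 and 1.39 FPKM in chronic-stressed males, against 0.93, 0.64, 0.56 and 0.99 FPKM in non-stressed males. The male log2 fold change was 0.67 ± 0.19, given without a test since the gene lies at the limit of the rule. Female levels overlapped, at 0.96, 1.02, 0.96 and 1.23 FPKM in chronic-stressed and 1.09, 0.91, 1.31 and 1.35 FPKM in non-stressed mice. The female minus the male stress effect of Slc17a8 was -0.83 ± 0.26 and did not pass over all genes. The vesicular amino acid transporter Slc6a17 rose in females by 0.61 ± 0.18 (adjusted p = 0.0111) and was 0.46 ± 0.18 in males (adjusted p = 0.0533). The female call ended with the length trend removed (0.30) and without non-stressed female libraries 1 and 4 (0.26).

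Amino acid and peptide carriers outside those families mostly rose where they passed: 12 of 26 rose and 0 fell in males, and 11 rose and 2 fell in females. The rises are 46.2% and 42.3% of the class, against 18.5% and 22.1% of all genes. Length-corrected, 9 rose and 1 fell in males and 7 rose and 2 fell in females. Their summed FPKM was 265 ± 3.19 in chronic-stressed males and 224 ± 9.78 in non-stressed males, and 261 ± 6.21 in chronic-stressed females and 220 ± 22.2 in non-stressed females (SD, n = 4 each). The stressed and non-stressed sums did not overlap in either sex. Slc7a14, a lysosomal relative of the cationic amino acid transporters, measured 28.3, 26.7, 29.2 and 26 FPKM in chronic-stressed males, against 16.3, 15.2, 15.6 and 18.1 FPKM in non-stressed males. Its female values were 26.9, 27.2, 28.3 and 27.6 FPKM in chronic-stressed mice, against 14.4, 17.6, 20.9 and 11.9 FPKM in non-stressed mice. The groups were apart in both sexes, with log2 fold changes of 0.77 ± 0.12 (adjusted p = 0.00011) and 0.76 ± 0.12 (adjusted p = 0.000113); the length-corrected values of 0.47 and 0.45 passed. Slc43a2 (LAT4), a carrier of branched-chain and aromatic amino acids, rose by 0.82 ± 0.16 and 0.85 ± 0.16 (0.51 and 0.53 length-corrected, and 0.54 in females without non-stressed libraries 1 and 4, all passing). Slc36a4, of the proton-assisted amino acid transporter family, rose by 0.46 ± 0.07 and 0.42 ± 0.07, and length-corrected it passed at 0.30 and 0.24. Slc38a1 (SNAT1), which imports glutamine, rose by 0.65 ± 0.10 and 0.59 ± 0.10. It has 17.2 kb of exonic sequence, and with the length trend removed it stood at 0.17 and 0.10 and did not pass.

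Slc7a5 (LAT1), the large neutral amino acid exchanger, measured 10.4, 11.6, 11.7 and 11.4 FPKM in chronic-stressed males, against 6.68, 7.99, 8.66 and 8.81 FPKM in non-stressed males. It rose by 0.50 ± 0.14 in males (adjusted p = 0.00922) and 0.46 ± 0.14 in females (adjusted p = 0.0125). In females the groups overlapped, and without non-stressed female libraries 1 and 4 the value was 0.20 and did not pass. Its heavy-chain partner Slc3a2 (CD98) fell in females by 0.21 ± 0.08 (adjusted p = 0.0382; 0.05 on TPM), and did not pass in males (adjusted p = 0.368). Its female value was -0.12 once library 4 of the non-stressed group was left out; the call ended there and when any chronic-stressed female library, or non-stressed female library 1, was left out. Slc7a11 (xCT), the cystine/glutamate exchanger that shares that heavy chain, rose by 0.62 ± 0.10 in males and 0.53 ± 0.10 in females, with means of 4.34 ± 0.438 FPKM in chronic-stressed and 2.86 ± 0.294 FPKM in non-stressed males. In females the means were 4.58 ± 0.501 FPKM in chronic-stressed and 3.17 ± 0.302 FPKM in non-stressed mice. Slc7a11 has 13.9 kb of exonic sequence, and its length-corrected values of 0.20 and 0.08 did not pass. Slc38a9, the lysosomal arginine carrier that reports amino acid supply to mTORC1, was named after its values were seen. It rose by 0.26 ± 0.08 and 0.30 ± 0.08, and with the length trend removed it passed in the other direction, at -0.21 in males and -0.20 in females. Its male call ended with limma on log2(FPKM + 0.5), and without chronic-stressed male library 2 or non-stressed male library 2 or 3. Leaving out non-stressed female libraries 1 and 4 gave 0.23 in females, which did not pass.

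The 250 bases before the start site are shown for 5 members from RefSeq (GRCm38.p6): Slc7a11, which holds amino acid response element cores (TGATGCA, either strand), Slc24a4 and Slc7a14, which hold an E-box (CACGTG, its own reverse complement), and Slc9a7 and Slc18a2, which had the highest and the lowest log2 fold change. Capitals mark the matches. The motifs were chosen with the results known.
Slc7a11, chr3:50443614-50443863, minus strand: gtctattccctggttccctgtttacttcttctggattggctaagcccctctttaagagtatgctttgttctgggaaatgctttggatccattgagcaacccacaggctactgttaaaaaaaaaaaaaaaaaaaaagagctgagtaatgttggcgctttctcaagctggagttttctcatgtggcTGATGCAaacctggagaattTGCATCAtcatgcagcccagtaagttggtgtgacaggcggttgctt
Slc24a4, chr12:102128477-102128726, plus strand: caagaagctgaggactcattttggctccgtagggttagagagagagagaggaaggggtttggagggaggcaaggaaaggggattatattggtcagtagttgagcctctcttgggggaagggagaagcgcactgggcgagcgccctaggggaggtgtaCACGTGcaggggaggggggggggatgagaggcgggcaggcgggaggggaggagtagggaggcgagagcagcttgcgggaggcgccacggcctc
Slc7a14, chr3:31310320-31310569, minus strand: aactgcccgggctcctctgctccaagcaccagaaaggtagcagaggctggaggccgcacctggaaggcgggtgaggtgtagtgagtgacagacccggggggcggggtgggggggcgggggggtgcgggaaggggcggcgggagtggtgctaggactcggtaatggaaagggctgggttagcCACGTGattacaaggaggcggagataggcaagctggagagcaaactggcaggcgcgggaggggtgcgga
Slc9a7, chrX:20291828-20292077, minus strand: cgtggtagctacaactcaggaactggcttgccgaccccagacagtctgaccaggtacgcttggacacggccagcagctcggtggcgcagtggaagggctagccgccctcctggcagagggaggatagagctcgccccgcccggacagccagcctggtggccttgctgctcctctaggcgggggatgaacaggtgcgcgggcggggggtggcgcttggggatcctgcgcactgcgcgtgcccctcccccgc
Slc18a2, chr19:59260628-59260877, plus strand: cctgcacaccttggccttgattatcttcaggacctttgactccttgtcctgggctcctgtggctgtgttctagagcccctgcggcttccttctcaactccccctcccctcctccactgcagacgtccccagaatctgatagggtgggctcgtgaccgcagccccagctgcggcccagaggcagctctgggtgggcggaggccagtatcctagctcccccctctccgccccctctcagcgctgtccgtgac

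RefSeq's table lists a start site for 182 of the 230 members, with 234 promoters among 32851. The E-box lay in 12.4% of the members' promoters and in 6.02% of all promoters. Of the 28 members that hold it, 5 rose and 1 fell in males and 3 rose and 5 fell in females. Of the 154 members whose listed promoters lack it, 35 rose and 16 fell in males and 38 rose and 21 fell in females. Among all genes tested, 18.5% rose and 21.2% fell in males, and 22.1% rose and 27.3% fell in females. The amino acid response core lay in 1.71% of the members' promoters and 2.68% of all. Of the 4 members that hold it, 2 rose and 0 fell in each sex, a base too small to compare. Of the 178 whose listed promoters lack it, 38 rose and 17 fell in males and 39 rose and 26 fell in females. Slc7a11 holds 2 copies in opposite orientation, which start 66 and 46 bases before the start site, and 12 of all promoters listed hold 2 or more. No match to either motif lay in the window of Slc9a7 or Slc18a2. A match is a run of letters and does not show that a factor binds.

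Chloride and bicarbonate carriers set the reversal potential of GABA currents and the pH of neurons and glia. Most of them did not pass with edgeR, and those that passed were higher. Of 5 cation chloride cotransporters, 3 rose in males (60%, against 18.5% of all genes) and 1 in females (20%, against 22.1%). Their median exonic length was 7.45 kb, and of all genes of 5 to 8 kb 26.3% rose in males and 34.5% in females. Corrected for length, 1 cotransporter rose and 1 fell in males and 1 rose in females. The potassium chloride cotransporter Slc12a5 (KCC2), which extrudes chloride from mature neurons, measured 60.5, 60.7, 69.5 and 64.1 FPKM in chronic-stressed males, against 42.6, 45.5, 52.6 and 53 FPKM in non-stressed males. Its female values were 57.4, 63.9, 62.8 and 66.4 FPKM in chronic-stressed mice, against 37.5, 51.3, 60.1 and 35.5 FPKM in non-stressed mice. Male groups were apart and female groups overlapped through non-stressed library 3, with rises of 0.41 ± 0.13 (adjusted p = 0.0228) and 0.44 ± 0.13 (adjusted p = 0.0123). With the length trend removed the values were 0.21 and 0.22, and neither passed. The female value was 0.20, also short of the threshold, when non-stressed female libraries 1 and 4 were left out, and the male call ended without chronic-stressed male library 3 or non-stressed male library 1 or 2. The opposing importer Slc12a2 (NKCC1), which brings chloride into cells, rose in males by 0.56 ± 0.13 (adjusted p = 0.00244). Its libraries were 12.6, 11.4, 7.77 and 12.7 FPKM in chronic-stressed males, against 7.83, 8.42, 7 and 7.17 FPKM in non-stressed males, which overlap through chronic-stressed library 3. That library also had the lowest summed choroid plexus markers of its group (1180 FPKM, against up to 4550 FPKM), a tissue that expresses Slc12a2 strongly. In non-stressed males these markers summed to 2110 to 6510 FPKM, and 0 of 8 passed in either sex. Ttr, most of each sum, had a male log2 fold change of -0.245, and the median of the 8 was 0.597. The part of this tissue in the Slc12a2 result was not tested. With the length trend removed the male value of Slc12a2 was 0.22 and did not pass. In females it was 0.24 ± 0.13 and did not pass (-0.15 with the length trend removed).

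Of 12 bicarbonate and anion exchangers, 0 fell and 2 rose in each sex. The rises are 16.7% of the class, against 18.5% of all genes in males and 22.1% in females. With the length trend removed, 1 rose in males, and 2 rose and 1 fell in females. Slc4a8, the sodium-driven chloride/bicarbonate exchanger of nerve endings, measured 9.89, 10.1, 11.1 and 10.3 FPKM in chronic-stressed males, against 5.44, 6.37, 6.46 and 6.38 FPKM in non-stressed males. Its libraries in chronic-stressed females stood at 9.95, 10.9, 10.7 and 10.7 FPKM, against 4.65, 6.72, 8.37 and 4.17 FPKM in non-stressed females. All stressed libraries were above the non-stressed ones, with log2 fold changes of 0.76 ± 0.15 (adjusted p = 0.00095) and 0.82 ± 0.15 (adjusted p = 0.000447). Length-corrected values of 0.37 and 0.42 passed, as did 0.51 in females without non-stressed libraries 1 and 4. The astrocyte sodium bicarbonate cotransporter Slc4a4 rose by 0.43 ± 0.07 and 0.40 ± 0.07. It has 11.3 kb of exonic sequence, and its length-corrected values of 0.08 and 0.01 did not pass.

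Of 15 sugar carriers, 1 rose in males, and 2 rose and 1 fell in females. Slc2a1 (GLUT1), the glucose carrier of the blood-brain barrier and astrocytes, averaged 16.4 ± 1.15 FPKM in chronic-stressed males and 16.3 ± 0.992 FPKM in non-stressed males, and 16.4 ± 1.22 FPKM in chronic-stressed females and 16.9 ± 1.55 FPKM in non-stressed females. Its adjusted p was 0.854 in males and 0.678 in females. On TPM its values of 0.25 and 0.21 passed, beside medians of all genes of 0.19 and 0.22. The neuronal glucose carrier Slc2a3 (GLUT3) rose in females by 0.23 ± 0.07, with an adjusted p of 0.056 in males; its female value was 0.01 with the length trend removed and did not pass. Endothelial markers (Cldn5, Pecam1, Flt1 and Slco1a4) summed to 13.3 to 16.6 FPKM in chronic-stressed males and 17.8 to 19.8 FPKM in non-stressed males. In females they summed to 14.3 to 16.8 FPKM in the chronic-stressed group and 18.2 to 29.3 FPKM in the non-stressed group, and 1 of 4 rose and 1 fell in males and 1 rose and 2 fell in females. Their part in the results was not tested.

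Of 14 monocarboxylate and dicarboxylate carriers, 4 rose and 2 fell in males, and 4 rose and 3 fell in females. Slc16a4, a monocarboxylate transporter relative whose substrate is poorly known, measured 1.29, 1.31, 0.75 and 1.74 FPKM in chronic-stressed males, against 2.76, 2.81, 2.06 and 1.89 FPKM in non-stressed males. In females it measured 1.06, 1, 1.26 and 1.13 FPKM in the chronic-stressed group, against 2.91, 2.52, 2.51 and 2.83 FPKM in the non-stressed group. The groups did not overlap in either sex, and the log2 fold changes were -0.90 ± 0.20 (adjusted p = 0.00175) and -1.28 ± 0.20 (adjusted p = 9.15e-05). Slc16a11 fell by 0.52 ± 0.10 and by 0.35 ± 0.10; with the length trend removed its values were -0.27 and -0.10 and did not pass, and on TPM the female value was -0.09 and did not pass. The orphan Slc16a14 rose by 0.94 ± 0.35 and 1.11 ± 0.35, with means of 2.34 ± 0.0619 FPKM in chronic-stressed and 1.22 ± 0.231 FPKM in non-stressed males. Its male call (adjusted p = 0.0403) ended when any chronic-stressed library of either sex, or non-stressed male library 1, 2 or 3, was left out, and the female call without non-stressed female library 1. Leaving out libraries 1 and 4 of that group gave 0.44. The lactate carrier Slc16a7 (MCT2) of neurons rose in males by 0.48 ± 0.10, and its length-corrected value of 0.12 did not pass. Slc16a1 (MCT1), which exports lactate from glia and endothelium, fell in females by 0.30 ± 0.11 and did not pass in males (adjusted p = 0.237). The female call ended when library 1 or 4 of either female group was left out, and the value was -0.02 without both of them in the non-stressed group and -0.03 on TPM.

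Mitochondrial carriers of the Slc25 family are the class with the most members. Of 40, 3 rose and 10 fell in males and 6 rose and 13 fell in females, so 25% and 32.5% of the class fell, against 21.2% and 27.3% of all genes. On TPM 14 rose and 1 fell in males and 14 rose and 2 fell in females. The class median on TPM was 0.21 in males and 0.15 in females, beside all-gene medians of 0.19 and 0.22, so the female class median lay 0.07 below that of all genes. With the length trend removed, 5 rose and 5 fell in males and 5 rose and 8 fell in females. Their summed FPKM was 876 ± 7.21 in chronic-stressed males and 981 ± 25.8 in non-stressed males, and 882 ± 5.39 in chronic-stressed females and 1036 ± 117 in non-stressed females. Both sums were lower in every stressed library than in any non-stressed one of the same sex. Slc25a4 and Slc25a5, at means of 250 and 134 FPKM, are the largest terms. FPKM sums are not scaled to a library's total FPKM, which differed between libraries. All members summed to 3534 FPKM (1.34% of all FPKM) in chronic-stressed male library 1 and 3247 FPKM (1.03%) in non-stressed male library 1. A difference in the class sum as a share of all FPKM was not tested, so the lower sums do not show a lower share. Without non-stressed female libraries 1 and 4, 3 rose and 4 fell in females.

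Slc25a3, the carrier that brings phosphate into mitochondria for ATP synthesis, measured 57.7, 59.7, 59.9 and 59.7 FPKM in chronic-stressed males, against 78.1, 79.7, 81.9 and 77.3 FPKM in non-stressed males. In chronic-stressed females it measured 62, 61.7, 58.4 and 60.1 FPKM, against 94.9, 80.8, 79.1 and 109 FPKM in non-stressed females. The groups were apart in both sexes, and the log2 fold changes were -0.41 ± 0.09 (adjusted p = 0.00202) and -0.59 ± 0.09 (adjusted p = 8.55e-05). The female value was -0.37 without non-stressed libraries 1 and 4 and passed. The ADP/ATP carrier Slc25a4 measured 217, 208, 211 and 205 FPKM in chronic-stressed males, against 291, 273, 268 and 241 FPKM in non-stressed males, and had an adjusted p of 0.0564. Chronic-stressed females had values of 218, 220, 216 and 209 FPKM, against 319, 247, 238 and 419 FPKM in non-stressed females. All stressed libraries lay below the non-stressed ones, and it fell in females by 0.51 ± 0.14 (adjusted p = 0.00571), a value of -0.14 without non-stressed female libraries 1 and 4 that did not pass, and of -0.30 without library 4 alone. The female value was -0.21 with the length trend removed and -0.22 on TPM, and neither passed. The citrate carrier Slc25a1 fell by 0.35 ± 0.07 in each sex. On TPM its values were -0.13 and -0.09, and with the length trend removed -0.04 and -0.03, and none passed. The carnitine/acylcarnitine carrier Slc25a20 fell by 0.32 ± 0.08 and by 0.29 ± 0.08, and Slc25a14, known as an uncoupling protein of brain, fell in females by 0.65 ± 0.16. Slc25a20 stood at -0.08 and -0.03 on TPM, and at -0.17 in females without non-stressed female libraries 1 and 4, and none of the 3 passed, nor did either sex with no filter on low values. Slc25a14 stood at -0.34 in females with the length trend removed and did not pass. Leaving out library 4 of the non-stressed females gave -0.39, and leaving out libraries 1 and 4 gave -0.22, and both passed. The second ADP/ATP carrier Slc25a5 was -0.14 ± 0.10 in males (adjusted p = 0.276). With the length trend removed its male value was 0.25 and passed as higher, and on TPM it was 0.09 and did not pass. It fell in females by 0.30 ± 0.10 (adjusted p = 0.0217), where the groups overlapped. That call ended with no filter on low values, with the compared groups alone, and without non-stressed female library 1 or 4. Without both it was -0.03, with the length trend removed 0.11 and on TPM -0.03.

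**Figure D4:**
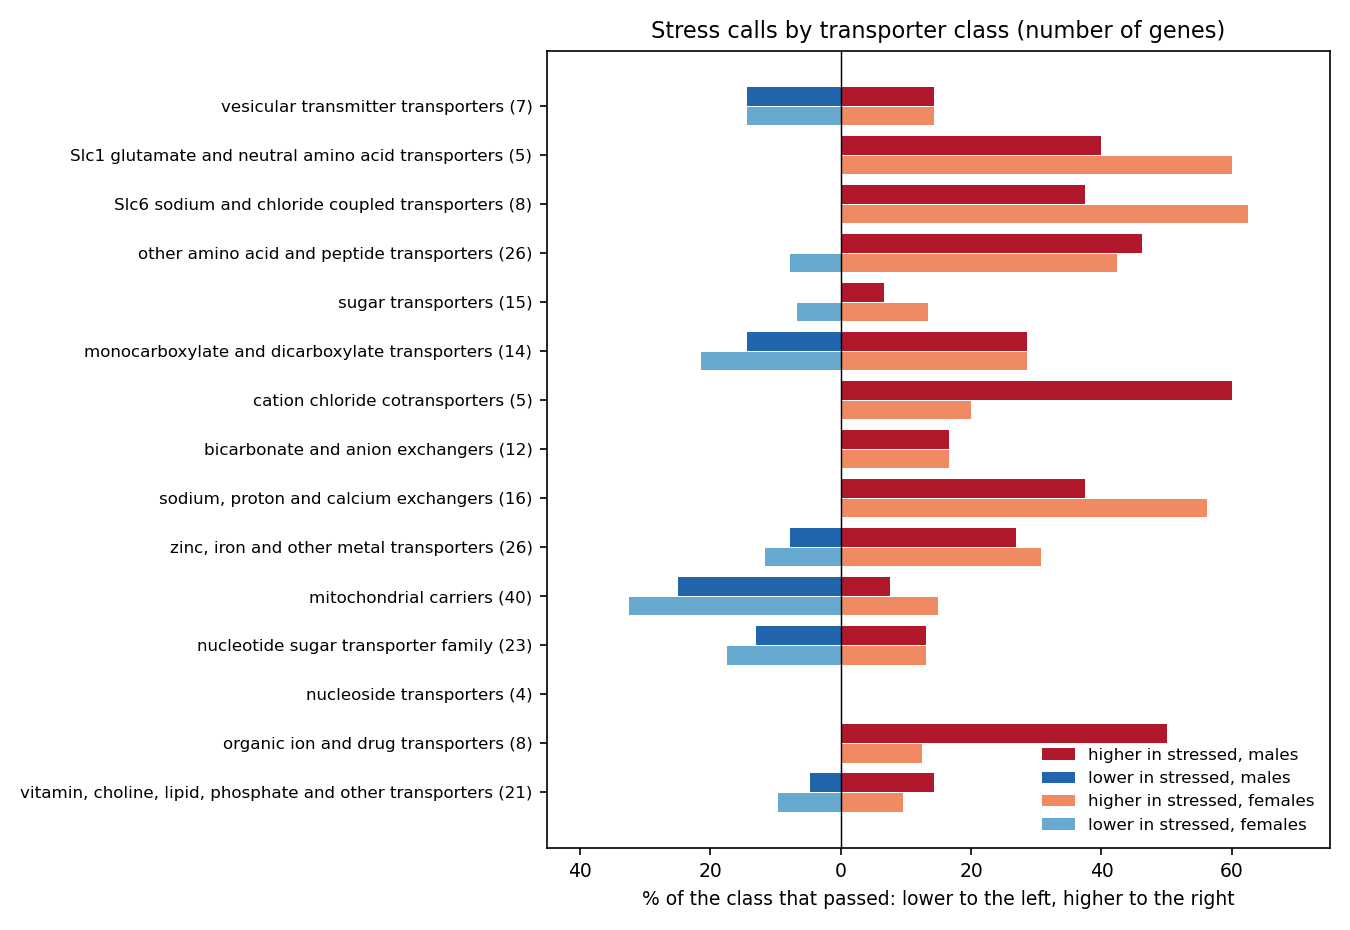
Percent of each transporter class that passed, higher in chronic-stressed mice to the right and lower to the left, with males above females in each pair of bars and the number of genes in brackets. Mitochondrial carriers reach farthest to the left, with 10 of 40 lower in males and 13 of 40 in females (21.2% and 27.3% of all genes were lower). Amino acid carriers, cation chloride cotransporters and exchangers lie to the right (18.5% and 22.1% of all genes were higher).

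Of 21 carriers of vitamins, choline, lipids, phosphate and other solutes, 3 rose and 1 fell in males and 2 rose and 2 fell in females. Slc46a1, the proton-coupled folate transporter, had the smallest p of all members in both sexes. It measured 3.3, 3.39, 2.98 and 3.59 FPKM in chronic-stressed males, against 5.51, 6.58, 6.24 and 6.32 FPKM in non-stressed males. Its libraries in chronic-stressed females stood at 2.87, 2.96, 3.33 and 3.18 FPKM, against 7.18, 6.52, 6.74 and 5.99 FPKM in non-stressed females. The groups were well apart, and the log2 fold changes were -0.89 ± 0.09 (adjusted p = 1.21e-06) and -1.10 ± 0.09 (adjusted p = 9.66e-08). Sarm1, within 5 kb on the opposite strand, had log2 fold changes of 0.48 and 0.59. Slc23a2, the sodium-coupled vitamin C transporter of neurons, measured 27.2, 29.8, 24.4 and 27.5 FPKM in chronic-stressed males, against 15.3, 17, 15.6 and 16.5 FPKM in non-stressed males. In chronic-stressed females it measured 23.9, 24, 25.1 and 24.9 FPKM, against 13.3, 16.6, 18.1 and 9.78 FPKM in non-stressed females. No libraries overlapped, and it rose by 0.77 ± 0.13 and 0.76 ± 0.13 (adjusted p = 0.000188 and 0.000182).

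Of 26 zinc, iron and other metal transporters, 7 rose and 2 fell in males and 8 rose and 3 fell in females. The rises are 26.9% and 30.8% of the class, against 18.5% and 22.1% of all genes. The zinc exporter Slc30a4 rose by 0.33 ± 0.07 and 0.32 ± 0.07, the female value being 0.20 and not passing with the length trend removed. The manganese exporter Slc30a10 and the manganese and zinc importer Slc39a14, which act on the same metal in opposite directions, both rose in males, by 0.39 ± 0.08 and 0.51 ± 0.10. Length-corrected, Slc30a10 passed at 0.23. The value of Slc39a14 was 0.18 with the length trend removed and did not pass. Slc30a3 (ZnT3), which fills synaptic vesicles of mossy fibres with zinc, averaged 31.6 ± 1.87 FPKM in chronic-stressed males and 27.2 ± 1.4 FPKM in non-stressed males and rose by 0.23 ± 0.07 (adjusted p = 0.014), a call that ended without chronic-stressed male library 3, and 0.44 with the length trend removed. In females it was 0.14 ± 0.07 and did not pass (adjusted p = 0.113), but passed at 0.35 length-corrected and at 0.21 without non-stressed libraries 1 and 4. Of 23 members of the nucleotide sugar transporter family, which supplies the Golgi, 3 rose and 3 fell in males and 3 rose and 4 fell in females. Among these the orphan Slc35e1 rose by 0.46 ± 0.11 and 0.49 ± 0.11 (0.27 in females without non-stressed libraries 1 and 4), and the orphan Slc35g2 fell by 0.49 ± 0.13 and by 0.65 ± 0.13. With the length trend removed, Slc35g2, which has 1.59 kb of exonic sequence, stood at -0.09 and -0.24 and did not pass, and on TPM the male value of -0.25 did not pass. Of the 4 nucleoside transporters 0 passed with edgeR (1 in males and 1 in females at an unadjusted p under 0.05), and 3 rose in females with limma on log2(TPM + 0.5).

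Organic ion carriers rose in 4 of 8 cases in males (50%, against 18.5% of all genes) and in 1 of 8 in females (12.5%, against 22.1%). Slc22a6, an organic anion exchanger of the meninges, measured 2.33, 3.37, 2.9 and 2.18 FPKM in chronic-stressed males, against 1.31, 1.74, 2.03 and 1.41 FPKM in non-stressed males, a rise of 0.74 ± 0.26 (adjusted p = 0.0332). In females it measured 2.88, 2.6, 1.23 and 1.66 FPKM in the chronic-stressed group, against 1.56, 1.96, 3.09 and 1.65 FPKM in the non-stressed group, which overlap. The dicarboxylate carrier Slc13a3 also rose in males, by 0.66 ± 0.21 (adjusted p = 0.0219). Meningeal fibroblast markers, 6 with Slc22a6, summed to 25.5 to 38.2 FPKM in chronic-stressed males and 25.1 to 35.3 FPKM in non-stressed males. In males 2 of the 6 rose, Col1a2 and Slc22a6 itself, and the others did not pass. The part of the meninges in these results was not tested. The calls of Slc22a6 and Slc13a3 ended when chronic-stressed male library 2 or 3 or non-stressed male library 1 was left out. That of Slc22a6 also ended without non-stressed male library 2 or 4.

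The direction of change followed exonic length, and the members were longer (median 4.68 kb) than all genes tested (median 3.62 kb). Members higher in chronic-stressed males had a median exonic length of 6.56 kb, those lower 3.10 kb, and all members 4.68 kb; in females the medians were 7.39 kb for those higher and 3.40 kb for those lower. Of the 40 members with at least 8 kb, 55% rose in males and 62.5% in females, against 54.1% and 59.3% of all genes of that length. Of the 43 members under 3 kb, 2.33% rose in each sex, against 7.55% and 8.66% of all genes of that length, and 16.3% and 25.6% fell, against 34.6% and 42.8%. Their median log2 fold change was -0.03 in males and -0.10 in females, against -0.31 and -0.36 for all genes under 3 kb. With the length trend removed in every library, 57 members passed in males (43 higher, 14 lower) and 72 in females (45 higher, 27 lower), where 27.9% and 36.7% of all genes passed. Rises made up 75.4% and 62.5% of these member calls, and 50.2% and 44.2% of the calls of all genes. Of the members that passed without this correction, 34 of 73 in males and 40 of 87 in females passed again in the same direction.

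**Figure D5:**
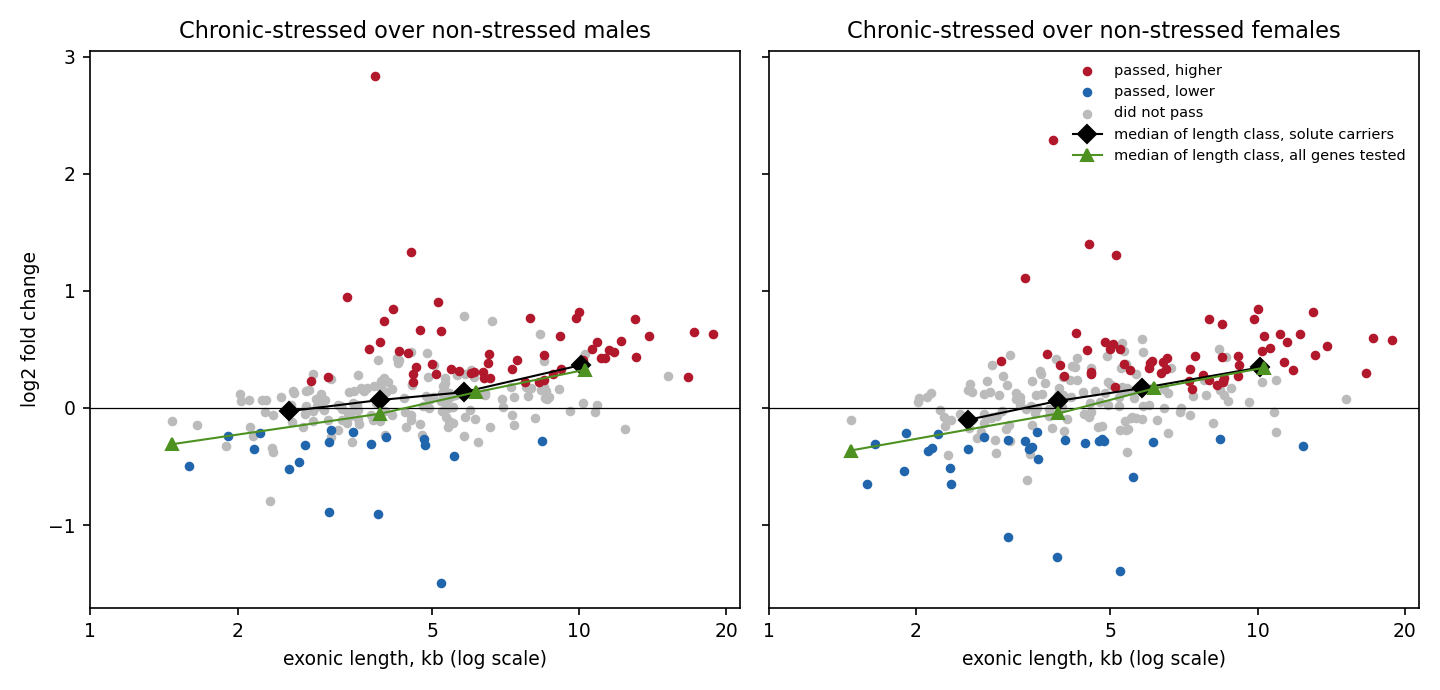
Log2 fold change of each member against its exonic length in kb (log scale) in males and females, coloured by call; diamonds are medians of the members and triangles medians of all genes tested in 4 length classes. Both rise with length, to 0.37 for members of 8 kb or more in males and 0.35 in females.

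A gene on the opposite strand overlapped 85 members and lay within 5 kb of, or overlapped, 150 (65.2%, against 66.3% of all genes tested). Of the 85 overlapped members, 29 rose and 3 fell in males and 30 rose and 6 fell in females; of all genes so overlapped, 22.4% rose and 21.2% fell in males and 26.8% and 25.3% in females. Of the 80 members with no such gene, 16 rose and 7 fell in males and 15 rose and 12 fell in females, where 17.4% of all such genes rose and 18.5% fell in males and 20.2% and 25.3% in females. A separate fit of genes with no such neighbour called 16 higher and 6 lower members in males and 16 higher and 12 lower in females, where 35.3% and 44.2% of those genes passed. Whether reads were assigned by strand is not given in the sources used here, so reads of a member and of an overlapping gene cannot be told apart.

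The calls of a small set of members held in every fit of all tested genes. The 30 fits varied tool, scaling, filter, length correction, replicate block and the libraries left out. Of the 222 members at 1 FPKM or more in each group, 11 passed every time in both sexes and in the same direction. They are 4.95% of those members, against 9.61% of all genes tested. Slc9a7 and Slc18a2, members only through the groups where they are high, are not counted here. The 8 higher ones were Slc24a4, Slc24a2, Slc7a14, Slc43a2, Slc36a4, Slc4a8, Slc23a2 and Slc35e1. The 3 lower ones were Slc46a1, Slc16a4 and Slc25a3. The 11 include exchangers and amino acid, vitamin and mitochondrial carriers. Of them, Slc24a2, Slc36a4, Slc16a4 and Slc25a3 have no opposite-strand gene within 5 kb.

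No member differed between the sexes at the threshold. Between chronic-stressed females and chronic-stressed males 0 members passed with edgeR (0.0398% of all genes passed, 0.0114% higher and 0.0285% lower), and 1 of 230 had an unadjusted p under 0.05. Between non-stressed females and non-stressed males 0 members passed (0.0455% of all genes, 0.0171% higher and 0.0285% lower), and 12 had an unadjusted p under 0.05. DESeq2 and limma on log2(FPKM + 0.5) also called 0 members in both. For the female minus the male stress effect, 0 members and 0% of all genes passed, with 5 members at an unadjusted p under 0.05, namely Slc17a8, Slc25a30, Slc8a3, Slc25a28 and Slc13a3. A call in 1 sex and not in the other is therefore not shown to differ between the sexes for any member.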

How the data were processed

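RNA-seq libraries of mouse hippocampus were analysed from the deposited table. The submitters' processing notes name GRCm39 as the genome build, HISAT2 (2.0.1) and HTSeq (0.6.1); the annotation release and the strand setting are not given in the sources used here. The authors deposited whole-number counts per gene. The authors also deposited FPKM, which a recomputation from counts, exonic length and column totals matched within 0.005. Expression was compared by quasi-likelihood tests of edgeR 4.0.16 (R 4.3.3), with TMM scaling and 4 group means over the 16 libraries. The 17569 genes tested reached 0.5 FPKM in 4 or more libraries; adjustment followed Benjamini and Hochberg, and values below 0.05 were called. All 230 members were tested; 8 of them had a mean under 1 FPKM in at least 1 group.

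Log2 fold changes are chronic-stressed over non-stressed, or female over male, with SE; FPKM has SD. Alternatives used DESeq2 1.42.0, limma 3.58.1 on log2(FPKM + 0.5) and on log2(TPM + 0.5), other scalings and filters, the compared groups alone, a spline in log2 exonic length removed per library, genes without an opposite-strand gene within 5 kb, a replicate block, and libraries left out. Opposite-strand genes came from the deposited coordinates, and promoter sequences from RefSeq (GRCm38.p6). The edgeR test was checked on simulated data. The members, transporter classes and lists were chosen with earlier results of these data known, so a pattern already seen gains no independent support here. Named genes were the most abundant, the largest and the most significant members of each class, and a list of well-known carriers; Slc38a9 is the exception. Figures were drawn with matplotlib 3.10.9. Results of some members are not reported here.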

Additional observations from a re-analysis of the deposited data

Results flagged for a closer look

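Of 152 groups of 4 values examined, 5 held a library whose gap to the nearest other exceeded Dixon's limit for 4 values; chance alone flags about 1 in 20 groups. Slc25a3 was 57.7 FPKM in chronic-stressed male library 1, against 59.7 to 59.9 FPKM in the other libraries of that group. Slc4a8 was 5.44 FPKM in non-stressed male library 1, against 6.37 to 6.46 FPKM in the others. Slc2a1 was 14.6 FPKM in non-stressed female library 3, against 17.6 to 17.7 FPKM in the others. The summed bicarbonate and anion exchangers were 120 FPKM in chronic-stressed male library 3, against 137 to 140 FPKM, and the summed mitochondrial carriers were 890 FPKM in chronic-stressed female library 2, against 878 to 880 FPKM.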

How the results depend on the processing

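Counts of members that passed are given as higher and lower. They were 54 and 19 in males and 58 and 29 in females, and became 82 and 22 in males and 34 and 16 in females with the compared groups fitted alone. Without non-stressed female libraries 1 and 4 they were 87 and 27 in males, which share the estimate of spread, and 41 and 13 in females. On TPM they were 107 and 5 in males and 129 and 6 in females. With no filter on low values they were 61 and 9 in males and 64 and 14 in females. Refitting the 80 members with no opposite-strand gene within 5 kb gave 16 and 6 in males and 16 and 12 in females, where 35.3% and 44.2% of such genes passed. Leaving out each library in turn gave 42 to 71 higher and 14 to 27 lower in males, and 44 to 81 higher and 18 to 32 lower in females; the low of 18 came without non-stressed female library 1, and 19 without library 4. Same-numbered libraries did not deviate together (correlations from -0.233 to 0.171), and the fit with a replicate block gave 57 and 16 in males and 61 and 28 in females. Removing the length trend turned the sign of Slc1a1 (-0.014 in males, -0.082 in females), Slc1a3 (-0.11 and -0.037) and Slc38a9 (-0.21 and -0.20), and of Slc12a2 in females (-0.15) and Slc25a5 in both sexes (0.25 and 0.11). TPM turned that of Slc25a5 in males (0.087) and Slc3a2 in females (0.050). The cause of these shifts was not tested.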

Other observations

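Slc30a2, a zinc transporter left out of the members by its mean of 0.759 FPKM, was singled out after its values were seen. It was listed at 0 to 0.02 FPKM in the chronic-stressed libraries and at 1.05 to 1.8 FPKM in the non-stressed ones.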
